A study of Mus musculus with 32 samples.

Results

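Untreated neural stem cells (NSCs) were described by their ribosome footprints, and the vehicle cultures of the 2 h arm were compared with those of the 14 h arm. The libraries were chosen by their labels alone: of the 32 samples of the series, the 8 footprint libraries labelled as controls were taken, 4 from 2 h (replicates 2, 3, 5 and 6) and 4 from 14 h (replicates 1, 2, 3 and 4). The NSCs of both groups came from the ventricular-subventricular zone (vSVZ) of C57BL/6 mice aged 8 to 12 weeks and were grown with bFGF, EGF, heparin and B27. At 48 h after seeding they received the vehicle of interferon-β (IFN-β), and 0.1 mg/ml cycloheximide was added for 5 min before lysis in every culture. The labels name no transgene or deletion in any of them. Each replicate is described in the methods as a separate culture from different mice, so the spread between libraries includes the spread between cultures. Each time point was deposited as a table of its own with its own cultures. Time in vehicle, culture batch and origin of the cells cannot be told apart in any difference between the groups.

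A ribosome protects the stretch of mRNA that it covers from RNase, so sequencing of the protected fragments counts ribosomes on each coding sequence (CDS) and follows mRNA amount and translation together. Adult vSVZ stem cells are radial glia-like astroglial cells that, under EGF and FGF, divide and express Sox2, Nestin, Vimentin and the brain lipid binding protein Fabp7; on removal of the growth factors they form neuroblasts, astrocytes or oligodendrocytes. Amino acid supply, sterol supply, growth factor signalling and interferon each act on known groups of genes in such cells, and the genes are grouped below by these roles. Bulk libraries were sequenced, so fewer cells of a type and less RNA per cell cannot be told apart.

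The footprint libraries held 7110178 to 9361609 counts at 2 h and 5366290 to 10505108 counts at 14 h, and 97.1% to 98.0% of them lay in protein-coding genes. Levels are given as CPM, counts scaled to library sizes that edgeR normalised by the trimmed mean of M-values (TMM), and, where genes are compared with each other, as TPM, counts per kilobase of CDS scaled to the same sum in each library. 1 library stood apart. The 2 h replicate 3 library correlated with the other 2 h libraries at 0.956 to 0.967 (Pearson's r of log2 CPM across genes, which are not independent replicates), against 0.990 to 0.991 among these. Correlations within 14 h were 0.987 to 0.994. Between the times they were 0.949 to 0.971, and 0.901 to 0.910 where 2 h replicate 3 was one of the pair. The biological coefficient of variation was 0.185 at 2 h, 0.0796 without this culture, and 0.0775 at 14 h. The counts of the gene lists that moved, and single changes that this culture altered most, are therefore also given without 2 h replicate 3.

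The cultures also differed in Y-linked genes. Kdm5d, a histone demethylase, held 261 to 381 counts in the 2 h libraries and 0 to 1 in the 14 h libraries. The initiation factor subunit gene Eif2s3y held 357 to 520 counts against 0 to 2, and Uty, a second demethylase gene, 246 to 339 against 0 to 3. Ddx3y, an RNA helicase gene with a close X-linked copy, held 274 to 401 against 8 to 17. Tsix, which overlaps Xist on the opposite strand, had 0 to 1 counts in the 2 h total RNA libraries and 83 to 340 in those of 14 h, while Xist itself had 0 to 2 and 1 to 4; the strand setting of the counting is not given in the sources used here, so reads of the pair cannot be parted. The methods name male mice, and the labels of these samples give no sex. In every 14 h library the Y-linked genes were at or near 0, a further difference that cannot be told apart from time and batch; the sex of the cells was not tested.

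**Figure D1:**
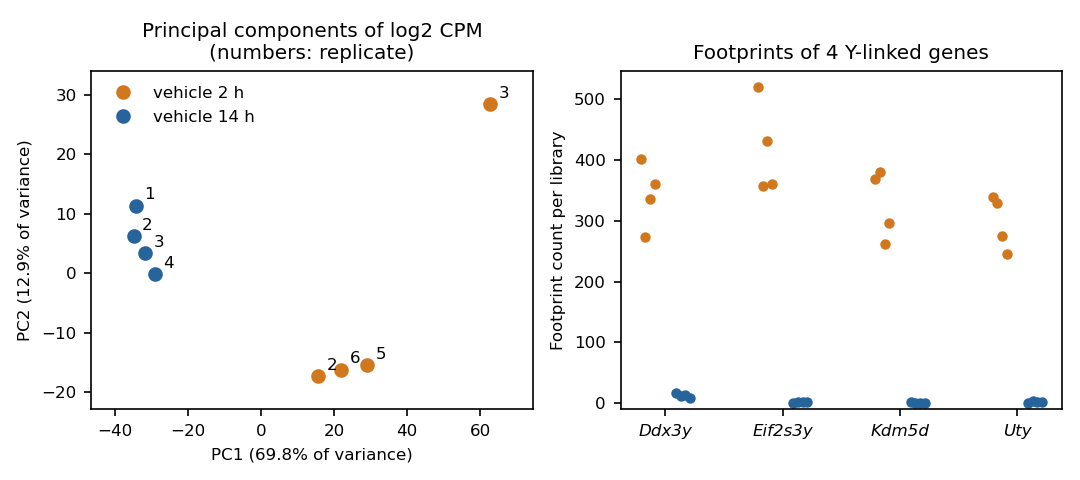
Left, principal components of log2 CPM over the genes tested for the 8 footprint libraries (axes in units of the component, numbers are replicates); right, counts of 4 Y-linked genes in each library. The first component, 69.8% of the variance, separates the times, 2 h replicate 3 lies farthest out, and the Y-linked genes sit at 246 or more counts in each 2 h library and at 17 or fewer in each 14 h library.

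The libraries carried the markers of their label and some of other lineages. Over 23 listed NSC and astroglial markers the median level was 97.8 TPM, against 24.2 TPM over the 11731 protein-coding genes with at least 1 TPM. Transit amplifying and neuroblast markers had a median of 3.96 TPM. Oligodendrocyte lineage markers had a median of 4.17 TPM, but Olig1 among them stood at 2206 TPM. That list summed to 2649 to 3213 CPM at 2 h and 2308 to 2776 CPM at 14 h. Mature neuron markers had a median of 2.51 TPM and summed to 801 to 990 CPM at 2 h and 1097 to 1195 CPM at 14 h. Of 13 microglia and macrophage markers 7 were listed at 0 in every library, and the summed level of that list was 101 to 142 CPM at 2 h and 92.0 to 103 CPM at 14 h. All 5 erythroid markers were at 0 throughout. Summed endothelial markers stayed between 11.1 and 24.5 CPM, and summed ependymal markers between 19.8 and 47.1 CPM. All 13 mitochondrially encoded genes were listed at 0 in every library, so mitochondrial translation is not covered.

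The largest footprint densities belonged to a small set of cytoskeletal, lipid-binding, energy-buffering and histone genes. Over both times, the 100 genes with the highest TPM held 25.2% of all TPM, and the 10 highest held 8.06%. Tmsb4x, encoding the actin-sequestering peptide thymosin β4 (chrX:167207093-167209315, minus strand, GRCm38), ranked first. Its level was 30812, 46884, 37346 and 31189.8 TPM in the 2 h libraries and 9542, 10564, 12064 and 14394 TPM in the 14 h libraries. The groups did not overlap, and the level is per kilobase of a CDS of only 153 bases. Fabp7, the radial glial fatty acid carrier, came second with 8797 ± 1779 TPM at 2 h and 6168 ± 140.4 TPM at 14 h (SD, n = 4). Ckb, the brain creatine kinase, followed with 7891 ± 568 and 6991 ± 488 TPM. Actb, cytoplasmic β-actin, held 6827 ± 415 and 6885 ± 60.9 TPM.

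Replication-dependent histones filled much of the upper end. Hist1h4d, Hist1h4h, Hist1h4b, Hist1h4m and Hist1h4j, which all encode histone H4, had mean levels of 5249 to 6943 TPM. Hist1h3b, Hist1h2ao and Hist2h2aa2, genes of H3 and H2A, had 3543 to 3836 TPM. Of 59 histone genes with a CDS, 35 were among the 100 highest, and the family took 10.8% of all TPM at 2 h and 11.4% at 14 h. These genes are near-identical copies, so the split between single members is uncertain. The genes completing the 15 highest were Serpine2, a secreted protease inhibitor also called glia-derived nexin (3949.6 ± 423 TPM at 2 h and 4612 ± 137 at 14 h), Vim, the intermediate filament of radial glia (4160.3 ± 269 and 2829.7 ± 273), and Ptn, the growth factor pleiotrophin (3603 ± 906 and 2729 ± 331).

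**Figure D2:**
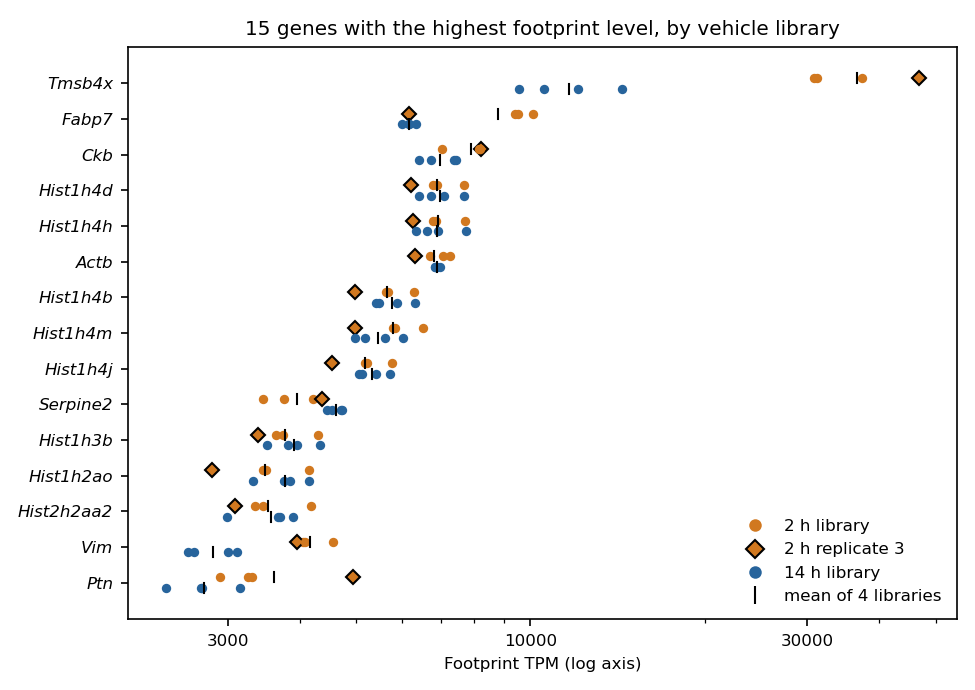
Footprint level (TPM, log axis) of the 15 genes with the highest mean, in each vehicle library; points are libraries, the diamond is 2 h replicate 3 and the bar is the mean of the 4 libraries of a time. Tmsb4x lies highest and its groups do not overlap, whereas the histone H4 genes and Actb overlap between 2 h and 14 h.

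Counted as a share of all footprints, without regard to length, the order changed to Ckb (0.763%), Actb (0.697%), Ptprz1 (0.533%), Serpine2 (0.456%), Vim (0.439%), Fabp7 (0.412%), Tmsb4x (0.333%), Atp5b (0.318%), Nes (0.317%) and Hspa8 (0.292%). Ptprz1 and Nes, a receptor tyrosine phosphatase and the intermediate filament nestin, entered through the length of their CDS (6938 and 5592 bases) and ranked 160 and 227 by TPM. The 1000 genes with most footprints took 50.7% of them. Of the 100 highest by TPM at 2 h, 80 were also among the 100 highest at 14 h. Cytosolic ribosomal proteins made up 3.14% of TPM at 2 h (1.89% in replicate 3 and 3.51% to 3.65% in the others) and 4.40% at 14 h. Cytoskeleton genes made up 6.00% and 3.36%, most of that difference being that of Tmsb4x. These shares were not tested.

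The sequence around the start codon is where the scanning ribosome begins, and it is shown for the highest-ranked genes other than histones, with the ATG in capitals, 12 bases before and 15 after (GENCODE M21 on GRCm38, 5′ to 3′ on the gene's strand).
Tmsb4x, chrX:167208034-167208036, minus: cttccagcaaccATGtctgacaaacccgat
Fabp7, chr10:57785009-57785011, plus: aggcggttaaggATGgtagatgctttctgc
Ckb, chr12:111671956-111671958, minus: gctgccgccgccATGcccttctccaacagc
Actb, chr5:142905684-142905686, minus: caccagttcgccATGgatgacgatatcgct
Serpine2, chr1:79821533-79821535, minus: ttggaaggaaccATGaattggcattttcct
Vim, chr2:13574432-13574434, plus: accttcgaagccATGtctaccaggtctgtg
Ptn, chr6:36744501-36744503, minus: gcaagccaaaaaATGtcgtcccagcaatat
The base 3 positions before the ATG, which is usually a purine in efficiently used starts, was a purine in 86 of the 88 genes of the top 100 with a sequence read here (97.7%), and in 9986 of 11539 protein-coding genes with at least 1 TPM (86.5%). A G directly after the ATG was present in 31 of the 88 (35.2%) and in 6161 of the 11539 (53.4%). Histone and ribosomal protein genes share their sequence context within families, so the 88 are not independent, and these shares are a description.

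Replicate cultures varied little except for 2 h replicate 3. Among genes averaging 200 counts or more, the highest library exceeded the lowest by more than 2-fold for 509 of 6925 genes at 2 h (7.35%) and for 38 of 7191 at 14 h (0.528%). Of the 509 genes, 264 were highest in 2 h replicate 3 and 147 in 2 h replicate 2. The widest were astrocyte genes. Gfap, the astrocyte intermediate filament, had 3.54, 116, 5.02 and 0.7 CPM in 2 h replicates 2, 3, 5 and 6 and at most 0.285 CPM at 14 h. Ndrg2 and Mmd2, both enriched in astrocytes, reached 143 and 132 CPM in replicate 3 and were at 5.26 and 5.91 CPM in replicate 2. Apln, encoding the secreted peptide apelin, went the other way with 7.96 CPM against 69.8 to 94.5 CPM. At 14 h the widest genes were Gm10222, Tmc3, Sptbn1, Dlgap3 and Hist1h2al (highest over lowest library 3.12 to 5.17), and 34 of the 38 were highest in replicate 1, the library with the fewest counts.

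Between the times, 3340 of 12131 genes tested differed (27.5%; quasi-likelihood F-test of edgeR, Benjamini-Hochberg adjusted p under 0.05, used for all calls below): 1439 were higher at 14 h (11.9%) and 1901 lower (15.7%). The 2 groups of 4 libraries did not overlap in CPM for 4317 genes (35.6%). Without 2 h replicate 3 the test called 4074 genes (33.6%; 1885 higher, 15.5%, and 2189 lower, 18%), of which 3252 were among the 3340. Leaving out 14 h replicate 2 or 3 gave 1920 and 2015 calls. Over the fits without a 14 h library, 777 to 957 genes were higher and 1143 to 1397 lower. Leaving out 2 h replicate 5 gave 950 higher and 1475 lower, and leaving out 2 h replicate 6 gave 1150 and 1711. The median log2 fold change over all genes tested was 0.00, and only 507 genes passed a test against a 1.5-fold change, 134 higher and 373 lower. Scaling by total counts alone gave 1802 genes higher and 1695 lower. With so wide a background, a group of genes is read against 11.9% higher and 15.7% lower. A count from a fit with a library left out is read against the calls over all genes in that fit. The strand setting of the counting is not given in the sources used here, so footprints of genes that overlap another gene on the opposite strand cannot be parted from it; 6748 of the genes tested overlapped none, and 1833 of these differed.

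**Figure D3:**
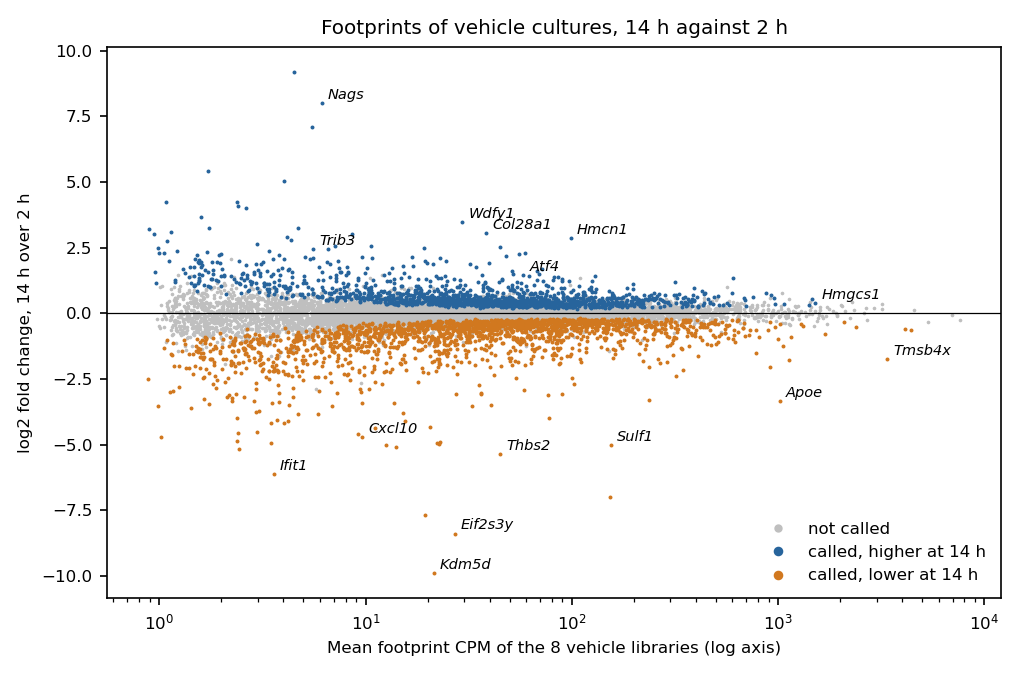
Each point is a gene tested, with the mean footprint level over the 8 libraries on the x axis (CPM, log axis) and the log2 fold change of 14 h over 2 h on the y axis; coloured points passed the adjusted p of 0.05 and labelled genes are named in the text. The 3340 called genes lie on both sides of 0, and the Y-linked genes Kdm5d, Eif2s3y and Uty lie at the bottom.

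The lowest p-values were those of Y-linked genes: Kdm5d had 1308 counts in all 2 h libraries together and 1 in all 14 h libraries, a ratio of 1445 (95% exact interval of counting error alone 259 to 57113.5). The X-linked partners went the other way, named here after their values were seen. Eif2s3x, subunit of the factor that brings the initiator tRNA to the ribosome, had 46.7, 34.3, 37.1 and 39.6 CPM at 2 h and 138, 83.5, 90.5 and 74.5 CPM at 14 h (log2 fold change 1.28 ± 0.19 (SE), edgeR adjusted p = 0.00159). Kdm5c rose from 183 ± 8.11 to 270.2 ± 7.16 CPM (SD, n = 4; 0.56 ± 0.07, edgeR adjusted p = 0.000481), and Ddx3x from 321 ± 68.2 to 458 ± 11.7 CPM (0.52 ± 0.14, edgeR adjusted p = 0.0246). Kdm6a missed the threshold with 0.45 ± 0.16 (edgeR adjusted p = 0.0551) and passed it without 2 h replicate 3 (0.63, edgeR adjusted p = 0.000118). Without all genes of the X and Y chromosomes, 3191 genes were called.

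After Kdm5d, Eif2s3y and Uty (log2 fold changes -9.89 to -7.67), the largest decreases included genes that act on the extracellular matrix. Sulf1, a sulfatase that trims heparan sulfate, had 158, 514, 335 and 191 CPM against 7.45, 5.31, 9.03 and 14.9 CPM (-5.00 ± 0.46, edgeR adjusted p = 0.000151; -4.59 without 2 h replicate 3). Every 2 h library lay above every 14 h library. Thbs2, the matrix protein thrombospondin-2, fell by 5.36 on the log2 scale (-4.54 without that culture, edgeR adjusted p = 0.00195). Among the 10 largest, Txnip, Aqp4, Mmd2 and Ndrg2 had log2 fold changes of -5.07 to -4.92 with 2 h replicate 3, in which each was highest, and of -2.86, -3.54, -3.40 and -2.75 without it (edgeR adjusted p of at most 0.0027).

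The largest increases came from genes of low level. Nags, the mitochondrial N-acetylglutamate synthase, had 1 count in all 2 h libraries and 426 in all 14 h libraries (ratio 386, counting interval 68.8 to 15267). Wdfy1, an endosomal FYVE domain protein, had 3.11, 6.11, 5.84 and 4.62 CPM at 2 h and 51.2, 55.4, 55.6 and 53.5 CPM at 14 h (3.47 ± 0.17, edgeR adjusted p = 2.5e-06), the lowest p of all increases. Tlx3, a homeobox transcription factor, had 2 counts against 367 (ratio 166, counting interval 45.7 to 1377). Gabra2, a GABA-A receptor subunit, went from 19.7 ± 3.78 to 98.9 ± 18.5 CPM (2.32 ± 0.17, edgeR adjusted p = 5.86e-05), and Gabbr2, a GABA-B receptor subunit, from 5.67 ± 2.55 to 32.7 ± 7.66 CPM (2.50 ± 0.29, edgeR adjusted p = 0.000506). The collagen gene Col28a1 and the basement membrane gene Hmcn1 had log2 fold changes of 3.06 and 2.87. Ache, the acetylcholinesterase, Hydin, a ciliary protein, and Vsig8 rose with 2.46 to 2.56. Tusc1 had 5.27, 9.72, 9.89 and 36.5 CPM at 14 h against at most 2.58 CPM at 2 h, and lost its call without 2 h replicate 3 (edgeR adjusted p = 0.0722). Nags, Wdfy1, Hmcn1, Hydin, Vsig8 and Ache overlap an annotated gene on the opposite strand.

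**Figure D4:**
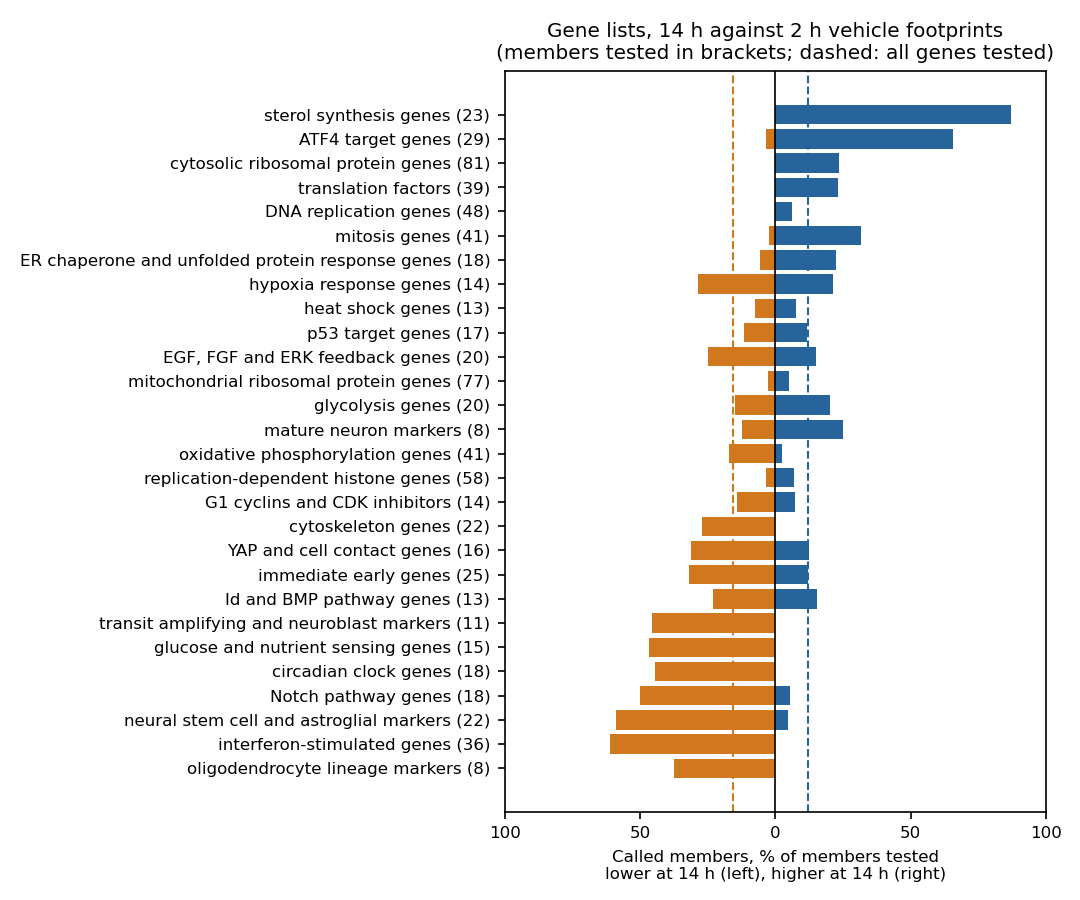
Percent of the tested members of each gene list with at least 8 tested members, Y-linked genes left out, that passed the test, lower at 14 h to the left and higher to the right; the dashed lines mark all genes tested (15.7% and 11.9%). Sterol synthesis and ATF4 target genes lie farthest to the right, and NSC and interferon-stimulated genes lie to the left.

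The amino acid response genes were higher at 14 h. ATF4 is a transcription factor made when the initiation factor eIF2 is phosphorylated or amino acids run short, and it induces amino acid synthesis, transport and tRNA charging. Of 29 listed ATF4 targets tested, 19 rose and 1 fell (median log2 fold change 0.57, against 0.00 over all genes), and 21 rose and 1 fell without 2 h replicate 3 (median 0.45). Their summed level was 3225 to 4062 CPM at 2 h and 4948 to 5254 CPM at 14 h, without overlap. Leaving out single libraries gave 12 to 21 members higher, with 12 when 14 h replicate 2 was left out.

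Atf4 itself (chr15:80255184-80257541, plus strand) had 36.9, 18.1, 33.1 and 35.2 CPM at 2 h and 100.5, 96.8, 73.6 and 70.2 CPM at 14 h. The 14 h libraries all lay above the 2 h libraries (1.46 ± 0.21, edgeR adjusted p = 0.00151; 1.27 without 2 h replicate 3), while its total RNA did not pass the test (-0.08, edgeR adjusted p = 0.935). Total RNA was limited by its depth and unknown strand setting, so the missing call does not show an unchanged transcript level. Trib3, a pseudokinase that feeds back on the pathway, had 2.9, 0.853, 1.22 and 1.68 CPM against 9.81, 11.5, 8.53 and 8.18 CPM (2.46 ± 0.30, edgeR adjusted p = 0.000607). Nupr1, a small stress-induced chromatin protein, and Chac1, which degrades glutathione, rose by 2.06 and 1.58 on the log2 scale. Among enzymes, Pck2, the mitochondrial PEP carboxykinase, went from 53.5 ± 11.8 to 125 ± 9.49 CPM, Mthfd2 of mitochondrial folate metabolism from 43.3 ± 18.3 to 102 ± 2.71 CPM, and Asns, asparagine synthetase, from 137 ± 40.0 to 259 ± 23.7 CPM (0.92 ± 0.20, edgeR adjusted p = 0.00938). Ddit3, the stress factor CHOP, rose from 2.74 ± 0.467 to 6.09 ± 1.89 CPM. The member that fell was Ddit4, an mTORC1 inhibitor, with 118, 299, 148 and 132 CPM at 2 h and 83.3 to 96.1 CPM at 14 h (-0.93 ± 0.26, edgeR adjusted p = 0.0263; -0.54 without 2 h replicate 3).

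Promoter sequences of these genes were read for the ATF4 binding word, since the list had moved as a group. The word TGATGNAA, on either strand, stood within 250 bases before and 50 after the start of 11 of 27 listed targets with a RefSeq promoter window (40.7%; 8 of the 19 that were called), and of 1219 of 27025 genes in all (4.51%). The list was drawn up from known targets, so the excess is a property of the list. Sites of 4 members that rose are printed with the word in capitals (RefSeq windows, GRCm38.p6).
Trib3, chr2:152344031-152344054, plus: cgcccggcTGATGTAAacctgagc
Asns, chr6:7693217-7693240, minus: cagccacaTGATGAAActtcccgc
Chac1, chr2:119351041-119351064, minus: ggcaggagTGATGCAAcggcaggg
Nupr1, chr7:126625565-126625588, plus: gccctgtcTGATGCAAtctggccc
A match is a description of the letters; binding was not measured.

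Most sterol synthesis genes had more footprints at 14 h. Of 23 genes tested, 20 rose and 0 fell (median log2 fold change 0.59), with 21 higher and 1 lower without 2 h replicate 3 (median 0.51), and 17 to 21 higher when each library was left out in turn. None passed the test against a 1.5-fold change (0 of 23). The summed level was 4112 to 6294 CPM at 2 h and 7419 to 8019 CPM at 14 h. Fdps, farnesyl diphosphate synthase, had 73.5, 40.5, 70.5 and 62.6 CPM against 144, 109, 104 and 127 CPM (0.97 ± 0.18, edgeR adjusted p = 0.00467). The lowest library was 2 h replicate 3, and the groups did not overlap. Hsd17b7 of late cholesterol synthesis, Mvd, the mevalonate decarboxylase, and Lss, lanosterol synthase, rose by 0.98, 0.83 and 0.82 on the log2 scale, and Hmgcs1, HMG-CoA synthase, went from 1397, 1146, 1366 and 1295 CPM to 1604, 1825, 1747 and 1719 CPM (0.41 ± 0.09, edgeR adjusted p = 0.0114).

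Members without a call were Nsdhl (0.40, edgeR adjusted p = 0.0706), Srebf2, which encodes a sterol-regulated transcription factor (430.3 ± 27.2 and 471 ± 3.43 CPM; 0.13, edgeR adjusted p = 0.197), and Dhcr7, which makes cholesterol in the last step. Dhcr7 had 551, 329, 512 and 553 CPM at 2 h and 423, 459.7, 479 and 493 CPM at 14 h (-0.07, edgeR adjusted p = 0.757) and was the gene that fell without 2 h replicate 3 (-0.22, edgeR adjusted p = 0.02). The sterol response word TCACNCCAC occurred in the window of 1 of 16 list genes with a promoter sequence, Hmgcs1 (6.25%), and in 388 of 27025 genes (1.44%). Its site, with the word in capitals, was read from RefSeq (GRCm38.p6).
Hmgcs1, chr13:119690206-119690230, plus: tcaccgtcTCACCCCACttcccagg

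Interferon-stimulated genes were lower at 14 h in the absence of added interferon. Of 36 tested, 0 rose and 22 fell (median log2 fold change -0.74; 0 and 23 without 2 h replicate 3, median -0.63; 19 to 23 lower with each library left out in turn), against 15.7% of all genes. Members such as Ifit1 passed the count filter through the 2 h libraries alone and could only fall. How many did so was not counted, so the count and median are a description. The summed level was 806 to 987 CPM at 2 h and 564 to 656 CPM at 14 h. Ifit1, which binds mRNA lacking cap methylation, had 219 counts over the 2 h libraries and 3 over those of 14 h (ratio 80.6, counting interval 27.2 to 394). Cxcl10, a chemokine, had 15.9, 18.1, 22.5 and 18.1 CPM at 2 h and 0.363, 0.501, 1.24 and 0.666 CPM at 14 h (-4.69 ± 0.26, edgeR adjusted p = 7.15e-06). Gbp2, a guanylate-binding protein, had 25.5, 39.8, 31.4 and 26.9 CPM against 3.45, 4.31, 5.19 and 6.66 CPM (-2.62 ± 0.21, edgeR adjusted p = 7.8e-05). Neither gene overlapped between the groups, and both were at low levels. Ifit3, Usp18, which restrains the interferon receptor, and Isg15, a ubiquitin-like modifier, had log2 fold changes of -4.50, -3.01 and -2.41. The more abundant B2m, the MHC class I light chain, went from 224 ± 42.4 to 168 ± 10.8 CPM (-0.42, edgeR adjusted p = 0.0308).

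The interferon-stimulated response word, GAAA followed after 2 bases of any kind by GAAA again on either strand, lay in the windows of 19 of 37 listed genes with a promoter sequence (51.4%; 11 of 18 called) and of 1079 of 27025 genes (3.99%), again a property of a list of known targets. It is shown in capitals for 4 genes that fell (RefSeq windows, GRCm38.p6).
Cxcl10, chr5:92349085-92349110, minus: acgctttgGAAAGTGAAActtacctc
Ifit1, chr19:34640796-34640821, minus: agcagtgaGAAACTGAAActgagact
Ifit3, chr19:34583399-34583424, minus: ggaaagtaGAAACTGAAAcagactta
Gbp2, chr3:142620596-142620621, minus: aagacagtGAAAGTGAAActaaaaga

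Markers of stem and astroglial cells were mostly lower at 14 h. Of 22 tested, 1 rose and 13 fell (median log2 fold change -0.65), with 1 and 14 without 2 h replicate 3 (median -0.53), and 8 lower when 14 h replicate 2 was left out. The summed level was 16583 to 21298 CPM at 2 h, highest in replicate 3, and 12413 to 14532 CPM at 14 h. The largest changes were those of genes shared with astrocytes. Apoe, the lipid carrier, had 526, 4785, 1205 and 908 CPM at 2 h and 182, 148, 158 and 241 CPM at 14 h (-3.35 ± 0.63, edgeR adjusted p = 0.00521). Its level in 2 h replicate 3 was 4785 CPM, and without that culture the change was -2.27 (edgeR adjusted p = 0.00478). Aqp4, the astrocyte water channel, Ntsr2, a neurotensin receptor, and Clu, clusterin, fell by 3.54, 2.36 and 2.12 on the log2 scale without that culture.

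Among the receptor, transcription factor and filament genes of the list, Egfr, the receptor of the EGF in the medium (chr11:16752203-16918158, plus strand), had 1030.0, 2149, 1410.2 and 1426 CPM at 2 h and 795, 786, 811 and 847 CPM at 14 h. The groups did not overlap (-0.89 ± 0.19, edgeR adjusted p = 0.00838; -0.67 without 2 h replicate 3). The stem cell transcription factors Sox2 and Sox9 went from 354 ± 104 to 210.2 ± 5 CPM (-0.75, edgeR adjusted p = 0.0116; -0.54 without 2 h replicate 3) and from 324 ± 63.6 to 240.5 ± 12.8 CPM (-0.43, edgeR adjusted p = 0.0292; -0.28 without it). Vim fell from 5370.1 ± 387 to 3453 ± 397 CPM (-0.64 ± 0.11, edgeR adjusted p = 0.00336; -0.67 without it) and Fabp7 from 4976 ± 1048 to 3293 ± 153 CPM (-0.60 ± 0.15, edgeR adjusted p = 0.0188; -0.74 without it). Hes1, a Notch-responsive repressor, was the member that rose (62.0 ± 10.5 to 85.6 ± 6.67 CPM; 0.46, edgeR adjusted p = 0.0208). Nes missed the threshold (0.37, edgeR adjusted p = 0.192).

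Markers of later stages of the lineage were counted in the same way. Of 11 transit amplifying and neuroblast markers, 0 rose and 5 fell (median -0.27; 0 and 7 without 2 h replicate 3). Dcx, the neuroblast microtubule protein, was at 2.53 ± 0.502 CPM at 2 h and 0.629 ± 0.359 CPM at 14 h, and Sox4, a neurogenic transcription factor, at 337, 852, 449 and 444 CPM against 217 to 227 CPM (-1.23 ± 0.24, edgeR adjusted p = 0.00631; -0.89 without 2 h replicate 3). Of 8 oligodendrocyte lineage markers 0 rose and 3 fell (median -0.83; 1 and 4 without 2 h replicate 3, median -0.44), among them Cldn11 and Cnp, both of the myelin sheath (-3.97 and -1.54). Of 8 mature neuron markers 2 rose, Calb2 and Map2, and 1 fell, Camk2a. Of 4 microglia and macrophage markers tested 1 rose and 1 fell, and 0 were called without 14 h replicate 1, 2 or 4. Of 3 endothelial markers 1 rose and 0 fell (1 and 2 without 2 h replicate 3, median -0.62). The members that rose were at low levels. The microglial P2ry12 went from 2.66 ± 1.58 to 7.39 ± 1.31 CPM, and the endothelial Tek was at 3.06 ± 0.234 CPM at 14 h against 1.06 ± 0.734 CPM.

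**Figure D5:**
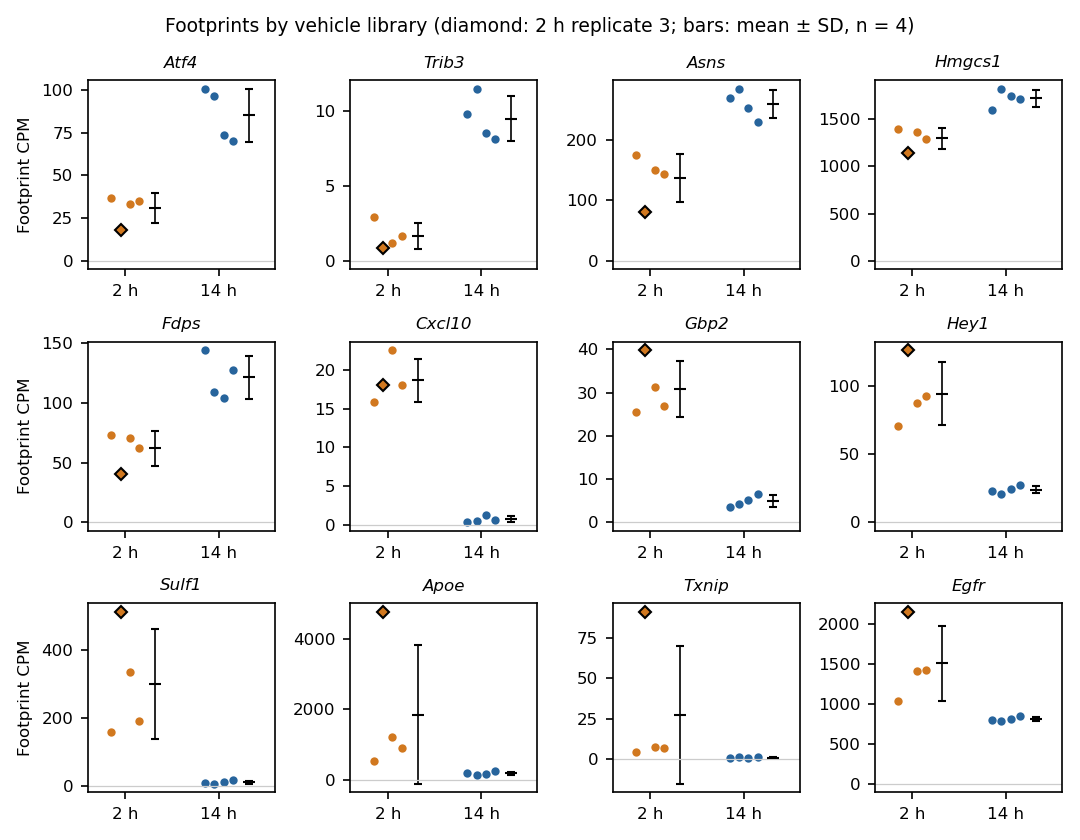
Footprint level (CPM) of 12 genes in each vehicle library, with the mean ± SD of the 4 libraries of a time and 2 h replicate 3 as a diamond. Atf4, Trib3, Asns, Hmgcs1 and Fdps are higher in every 14 h library than in any 2 h library, and Cxcl10, Gbp2, Hey1, Sulf1, Apoe, Txnip and Egfr are lower.

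Notch signalling keeps vSVZ stem cells from differentiating, and 9 of 18 of its genes tested fell while 1 rose (median -0.56; 10 and 1 without 2 h replicate 3, median -0.41; 6 fell without 14 h replicate 2). The target Hey1 had 70.5, 126, 87.3 and 92.7 CPM at 2 h and 22.7, 20.9, 24.6 and 27.2 CPM at 14 h (-1.97 ± 0.17, edgeR adjusted p = 0.000137). The target Hes5 had 5.59, 33.3, 4.48 and 10.9 CPM against 1.9 to 3.34 CPM, and its change went from -2.36 to -1.41 without 2 h replicate 3. The ligand Dll1 and the receptor Notch1 fell by 1.40 and 0.83 on the log2 scale, and Mfng, which glycosylates the receptor, by 1.70. The member that rose was Hes1. The list's summed level was 1928 to 2830 CPM at 2 h and 1404 to 1595 CPM at 14 h.

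Growth factor genes split. Of 20 genes of EGF, FGF and ERK feedback signalling 3 rose and 5 fell (median 0.05), and 7 rose and 6 fell without 2 h replicate 3. The receptors Fgfr2 and Fgfr3 fell from 45.6 ± 27.5 to 12.6 ± 1.77 CPM (-1.84 ± 0.35, edgeR adjusted p = 0.00553; -1.33 without 2 h replicate 3) and from 98.0 ± 55.9 to 29.5 ± 2.81 CPM (-1.73 ± 0.32, edgeR adjusted p = 0.00504; -1.26). Fgfr1 was at 176 ± 8.17 and 193 ± 16.3 CPM (0.13, edgeR adjusted p = 0.231). Dusp4, a phosphatase induced by ERK, rose from 35.8 ± 13.8 to 103 ± 10.1 CPM (1.51 ± 0.24, edgeR adjusted p = 0.00227). Of 25 immediate early genes 3 rose and 8 fell (4 and 10 without 2 h replicate 3): Ccn1 and Arc were higher (2.53 and 1.91), Fos and Btg2 lower (-1.84 and -1.63), and Egr1 stood at 320.1 ± 55.5 and 309 ± 13.2 CPM (-0.05, edgeR adjusted p = 0.764).

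Clock and nutrient genes were lower at 14 h or did not pass the test. Of 18 circadian genes 0 rose and 8 fell (median -0.49; 1 and 8 without 2 h replicate 3), and 3 fell when 14 h replicate 1, 2 or 3, and 4 when 14 h replicate 4, was left out. The clock output factor Dbp had 9.34, 34.8, 16.4 and 9.94 CPM at 2 h and 5.63, 3.71, 3.22 and 4.95 CPM at 14 h (-2.02 ± 0.43, edgeR adjusted p = 0.0094). Npas2, Nr1d1 and Tef fell by 2.13, 0.74 and 0.72 on the log2 scale. Of 15 glucose and nutrient sensing genes 0 rose and 7 fell (median -0.36; 0 and 8 without 2 h replicate 3; 3 without 14 h replicate 3 and 4 without 14 h replicate 2 or 4). Txnip, the glucose-responsive inhibitor of thioredoxin, had 4.08, 91.6, 7.06 and 6.58 CPM at 2 h and 0.727, 1, 0.495 and 0.856 CPM at 14 h. Its level of 91.6 CPM was that of 2 h replicate 3, and no other library exceeded 7.06 CPM. Pik3ip1, an inhibitor of PI3 kinase, Arrdc4 and Sesn1, a brake on mTORC1, fell by 1.76, 1.42 and 1.19 on the log2 scale.

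Listed translation factors were higher at 14 h where they were called, and their count moved with 2 h replicate 3; the Y-linked factor gene Eif2s3y, which was lower, is not in that list. Of 39 translation factors 9 rose and 0 fell (median 0.26; 17 and 0 without 2 h replicate 3, median 0.15), and 2 rose when any of the 4 libraries of 14 h, and 3 when 2 h replicate 5, was left out. Those fits called fewer genes in all, with 777 to 957 and 950 of 12131 higher. The list summed to 8761 CPM in 2 h replicate 3, to 13596 to 14062 CPM in the other 2 h libraries and to 15918 to 16196 CPM at 14 h. The elongation factors Eef1a1 and Eef2 had 721 and 1021 CPM in that culture, at least 1345 and 2195 CPM in the others, and passed the test only without it (0.27, edgeR adjusted p = 0.0139 and 0.22, edgeR adjusted p = 0.0247). Eef1b2, Pabpc1 and Eif2s2 rose by 0.72, 0.71 and 0.69 on the log2 scale.

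Of 81 cytosolic ribosomal protein genes 19 rose and 0 fell (median 0.44), and 41 and 0 without 2 h replicate 3 (median 0.24). Leaving out a 14 h library gave 6 to 8, leaving out 2 h replicate 5 gave 7 and leaving out 2 h replicate 6 gave 11. Their summed level was 8725 CPM in 2 h replicate 3, 16641 to 17016 CPM in the other 2 h libraries and 18508 to 20499 CPM at 14 h. Rps12, Rpl39l and Rpl23a rose by 1.26, 1.18 and 0.95 on the log2 scale from levels of 1.72 ± 0.536 to 20.1 ± 5.4 CPM at 2 h, and ribosomal protein genes share sequence with many pseudogenes, so single members are uncertain. Of 77 mitochondrial ribosomal protein genes 4 rose and 2 fell (5 and 6 without 2 h replicate 3), with 1 higher without 14 h replicate 2 or 3.

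Mitosis genes that were called were higher at 14 h except 1, by small changes, and most other cell division genes did not pass the test. Of 41 mitosis genes 13 rose and 1 fell (median 0.24), against 11.9% higher and 15.7% lower over all genes. Without 2 h replicate 3, 16 rose and 1 fell (median 0.17). The number higher was 3 without 14 h replicate 1, 2 or 3, 8 without 14 h replicate 4 or 2 h replicate 6, and 2 without 2 h replicate 5. Members of this list passing the test against a 1.5-fold change numbered 0. The summed level was 4657 to 5884 CPM at 2 h and 5979 to 6665 CPM at 14 h. Kif23 and Anln, which act in cytokinesis, Hmmr and Bub1, which act at the spindle, rose by 0.52, 0.50, 0.49 and 0.46 on the log2 scale. Mki67, the proliferation marker, was at 226 ± 19.2 and 274 ± 37.3 CPM (0.27, edgeR adjusted p = 0.0796). Of 48 DNA replication genes 3 rose and 0 fell, Tyms, Rfc4 and Rpa3 (0.44, 0.42 and 0.37), with 1 to 6 higher as single libraries were left out, 1 without 14 h replicate 1, 2 or 3 or 2 h replicate 5, and 6 without 2 h replicate 3. Ccnd1, the G1 cyclin D1, stood at 1908 ± 593 and 1914 ± 125 CPM (0.01, edgeR adjusted p = 0.989) and was lower at 14 h without 2 h replicate 3 (-0.20, edgeR adjusted p = 0.0439). Of 58 histone genes tested 4 rose and 2 fell, with 1 to 9 higher as single libraries were left out, 9 without 2 h replicate 6, and 5 higher and 5 lower without 2 h replicate 3.

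Cytoskeleton genes were lower where called. Of 22 tested 0 rose and 6 fell (median -0.09; 0 and 9 without 2 h replicate 3), and their sum was 28856 to 34123 CPM at 2 h and 24934 to 28422 CPM at 14 h. Tmsb4x fell from 5159 ± 1029 to 1558 ± 316 CPM (-1.73 ± 0.18, edgeR adjusted p = 0.000263), Tagln2, a small actin binder, from 626 ± 88.1 to 277 ± 46.1 CPM, and Stmn1, a microtubule destabiliser, from 315 ± 29.5 to 187 ± 26.7 CPM. Actb was at 7146 ± 431 and 6807 ± 141 CPM (-0.07, edgeR adjusted p = 0.579).

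Energy and stress lists were mixed. Of 20 glycolysis genes 4 rose and 3 fell (7 and 4 without 2 h replicate 3; 2 and 2 without 14 h replicate 1 or 2 or 2 h replicate 5): Ldha and Pkm of the lower pathway rose (0.63 and 0.54), while Pfkp and the glucose carrier Slc2a1 fell (-1.86 and -0.60). Of 41 nuclear oxidative phosphorylation genes 1 rose and 7 fell (1 fell without 14 h replicate 3, 2 without 14 h replicate 1 or 2, 3 without 2 h replicate 6 and 4 without 2 h replicate 5), with Cycs, cytochrome c, at 0.75 and without a call when 2 h replicate 3 was left out (edgeR adjusted p = 0.107). Of 14 hypoxia genes 3 rose, Vegfa and Adm most (1.31 and 0.88), and 4 fell, Mxi1 and Egln3 most (-1.53 and -1.37). Of 18 ER chaperone genes 4 rose and 1 fell (7 rose without 2 h replicate 3, and 1 without 14 h replicate 2, 3 or 4 or 2 h replicate 6), with Creld2 at 0.52 and the chaperone Hspa5 at 0.33, and of 13 heat shock genes 1 rose (Hspd1, 0.59) and 1 fell (Hspa4l, -1.10). Of 17 p53 targets 2 rose and 2 fell, of 16 YAP and cell contact genes 2 and 5 (2 and 7 without 2 h replicate 3), and of 13 Id and BMP genes 2 and 3. Gdf15, a secreted stress cytokine of the p53 list, rose from 25.2 ± 6.94 to 77.4 ± 10.0 CPM (1.62 ± 0.19, edgeR adjusted p = 0.000506).

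Total RNA of the same cultures gave little ground for setting transcript level beside the footprints. These libraries held 4362531 to 7877753 counts at 2 h and 1370008 to 2442404 at 14 h, and the 100 genes with the highest footprint TPM had a median of 14 counts per total RNA library, against 8130.25 footprints. Of 9158 genes tested 1045 differed between the times (11.4%), 521 higher and 524 lower. Of the 1045, 757 overlapped a gene on the opposite strand, and so did 5940 of all 9158 tested. Of the 3340 genes called in footprints 1751 had a total RNA test and 220 passed it, 160 in the same direction and 60 in the opposite one. Sox4 was among those in opposite directions (total RNA 1.14, edgeR adjusted p = 0.0133). Whether the total RNA counting used strand is likewise not given, so a value of a gene that overlaps another may be that of its partner, and these directions are limited by it. Translational efficiency was not computed for these reasons.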

How the data were processed

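Ribosome footprints and total RNA were measured in NSC cultures; the 8 vehicle footprint libraries were analysed, with the 8 vehicle total RNA libraries beside them. The authors trimmed reads (Trim Galore 0.4.4), aligned them with Bowtie 0.12.7 to a mouse transcriptome (mm10/GRCm38), removed duplicates and deposited raw counts per gene, footprints over the CDS; how duplicates were recognised and the strand setting are not given in the sources used here. Duplicate removal can limit the counts that short, highly covered CDS can reach.

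From the counts, TPM were computed over the union of coding exons (GENCODE M21; 22282 of 23035 genes matched). Genes reaching 10 counts in 4 or more of the 8 libraries were tested in edgeR 4.0.16 (TMM, glmQLFit with robust estimation, glmQLFTest, Benjamini-Hochberg, threshold 0.05; R 4.3.3), using the vehicle libraries alone without covariates. A gene could enter the test through the libraries of 1 time alone. The code was tested on simulated data. DESeq2 1.42.0, limma-voom (limma 3.58.1), other filters and scalings and left-out libraries were alternatives. Intervals cover counting error only. Members and lists were chosen with earlier results of these data known. A few genes that the rule names are not reported here. Named genes were the 15 highest by TPM and 10 by share, the 10 largest called changes each way with a mean of at least 50 counts and groups that do not overlap, the 3 lowest p-values each way, up to 4 called members per list by size of change plus members needed as values, and the 5 widest genes per time.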

Additional observations from a re-analysis of the deposited data

Results flagged for a closer look

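Of 354 groups of 4 libraries (genes named and summed lists, each at 1 time), 44 held 1 library far from the other 3, its gap exceeding Dixon's 95% critical value. Chance flags about 1 in 20 groups. The genes were named partly for their change, and many move together in 1 library, so the flags are not independent. In 26 of the 44 the library was 2 h replicate 3.

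High in 2 h replicate 3 were astrocyte genes: Apoe at 4785 CPM (526 to 1205 CPM in the other 2 h libraries), Aqp4 at 71.1, Ndrg2 at 143, Mmd2 at 132 and Ntsr2 at 63.7 CPM. So were the nutrient and growth brakes Txnip at 91.6, Pik3ip1 at 138, Sesn1 at 158, Ddit4 at 299 and Mxi1 at 83.8 CPM, the clock genes Nr1d1 at 85.7 and Tef at 68.5 CPM, the receptor Fgfr2 at 86.3 CPM and the MHC light chain B2m at 287 CPM. Low in it were the translation genes Eef1a1 at 721, Eef2 at 1021, Eif2s2 at 77.5 and Pabpc1 at 97.0 CPM, together with Adm at 36.5 and Arc at 5.97 CPM. Its summed lists stood apart at 8725 CPM for cytosolic ribosomal proteins, 8761 CPM for translation factors, 5422 CPM for glycolysis, 2034 CPM for glucose and nutrient sensing, 987 CPM for interferon-stimulated genes and 191 CPM for Y-linked genes. What set this culture apart was not tested.

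In the other 2 h libraries, Ckb was low in replicate 2 (7313 CPM), Tek high in replicate 2 (2.15 CPM), Egln3 high in replicate 5 (21.7 CPM) and Nags present in replicate 5 alone (0.136 CPM, 1 count). At 14 h, replicate 1 was high for Pabpc1 (357 CPM) and Rpl23a (49.4 CPM), low for Hspa8 (2692 CPM), Stmn1 (147 CPM) and the ribosomal protein sum (18508 CPM), and held the 1 count of Kdm5d (0.182 CPM). Replicate 2 at 14 h was high for Hydin (15.4 CPM), Tek (3.41 CPM) and the ATF4 target sum (5254 CPM) and low for Mfng (0.802 CPM). Replicate 3 was low for Npas2 (0.247 CPM) and high for the translation factor sum (16196 CPM), and replicate 4 was high for Tusc1 (36.5 CPM) and low for Eef1b2 (369 CPM).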

How the results depend on the processing

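Of 3340 footprint calls, a test against a 1.5-fold change left 507, removal of genes overlapping the opposite strand 1833, and left-out single libraries 1920 to 4074; other tools, scalings and filters gave 2800 to 4043. Total RNA gave 1045 calls, 100 on total counts alone, 188 against a 1.5-fold change, 206 without opposite-strand overlaps, and 365 (without 14 h replicate 1) to 2085 (without 2 h replicate 2) with single libraries left out; limma-voom put 59.9% of them higher against 49.9%. The times share only replicate numbers 2 and 3. Deviations of their same-numbered libraries from the group means correlated at r = 0.101 and -0.0215, and those of the crossed pairs at -0.00634 and -0.0340. So few correlations cannot show whether a number marks a shared origin, and no label says that it does. The same-numbered libraries also differed in Y-linked genes. Kdm5d held at least 261 counts in each 2 h library and at most 1 in each 14 h library. Whether a number pairs cultures was not tested further. A fit with the replicate number as a block called 182 footprint genes, 181 of them among the 3340, and 4 total RNA genes; it spends degrees of freedom on 6 numbers. Of the 115 named genes called, 113 of 113 tested remained with DESeq2, 109 with limma-voom, 113 without 2 h replicate 3 (Cycs and Tusc1 lost), 93 to 99 without a 14 h library and 31 with the block, and none of them changed direction. Ccnd1, not called, turned from 0.01 to -0.20 without 2 h replicate 3 and lay at up to 0.11 with other libraries left out. The 100 highest TPM genes kept 95 to 99 with single libraries left out, and 88 with CDS of at least 300 bases, where Tmsb4x drops out. The causes were not tested. Depth limits genes under 10 counts per library, and the 14 h total RNA most.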

Other observations

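A few genes outside the fixed lists separated the times without overlap. They were picked after their values were seen. Nnt, the mitochondrial transhydrogenase that makes NADPH, had 61.2, 33.8, 40.9 and 52.2 CPM at 2 h and 116, 121, 128 and 134 CPM at 14 h (log2 fold change 1.40 ± 0.16, edgeR adjusted p = 0.000482). Loxl2, which crosslinks collagen, had 24.4, 31.3, 33.7 and 24.2 CPM against 2, 1.9, 2.1 and 2.19 CPM (-3.78 ± 0.17, edgeR adjusted p = 1.38e-06), and Entpd4, a Golgi nucleotidase also on chromosome 14, 29.7 ± 2.44 against 14.3 ± 1.2 CPM (-1.06 ± 0.10, edgeR adjusted p = 0.000175). Total RNA of Loxl2 and Entpd4 was lower at 14 h too (-4.61 and -6.84), for Entpd4 far beyond its footprint change. These total RNA values are limited by depth and by the unknown strand setting. The labels give the strain as C57BL/6 without a substrain, and whether substrain differed between the cultures was not tested.

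Of 14 G1 cyclin and CDK inhibitor genes tested, 1 rose and 2 fell (2 and 4 without 2 h replicate 3). The inhibitors Cdkn1b and Cdkn2a fell from 114 ± 21.4 to 73.6 ± 6.82 CPM and from 236 ± 16.6 to 157 ± 12.7 CPM, while Cdk6 went from 9.8 ± 2.13 to 13.7 ± 0.62 CPM and lost its call when any 14 h library, or 2 h replicate 5 or 6, was left out. Id1, a BMP target, rose from 16.2 ± 1.91 to 25.3 ± 2.97 CPM. Ncam1, the neural cell adhesion molecule, fell from 1319 ± 104 to 670.1 ± 80.8 CPM (-0.98 ± 0.11, edgeR adjusted p = 0.000344), with no 14 h library above 786 CPM and no 2 h library below 1169 CPM. Txn1, thioredoxin, went from 2227 ± 345 to 4001 ± 502 TPM.

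The 2 h replicate 3 culture stood apart under IFN-β as well. As CPM of the library total, Gfap was at 463.5 in that library and at 44.8 to 73.8 in the other 2 h IFN-β libraries, and Apoe at 3509 against 473 to 935.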
